A study of Mus musculus with 4 samples.

Results

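A set of 37 genes for vesicle release and synaptic contact was followed in mouse adrenal glands. They were chosen by name from 54532 gene identifiers in the deposited count table, as genes for exocytosis, the active zone and adhesion in neurons and chromaffin cells. All 37 were in the table and 36 had enough counts to be tested. The choice was made with the contrast between dexamethasone and PBS already known, so that the fold changes and calls of these genes are given as a description and not as support for their selection.

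RNA came from the right adrenal gland, freed of fat, of adult male C57BL/6 mice. The dexamethasone group was made of 5 mice that received 10 µg of dexamethasone, a synthetic glucocorticoid, into the peritoneum, and the PBS group of 5 mice that received phosphate-buffered saline, the vehicle. Glands were taken 1 h later in both groups. Each group gave 2 libraries, pools of 2 and of 3 mice, so that n = 2 per group throughout and single animals cannot be seen. The whole gland was used, and fewer cells of a type and less RNA per cell cannot be told apart in such samples.

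Chromaffin cells of the adrenal medulla store catecholamines in large dense-core vesicles and release them when nerve fibres depolarise them. They share most of the release machinery with nerve terminals. Scaffold proteins gather vesicles at the release site, Rab3 GTPases and their effectors tether them, Unc13 and CAPS proteins prime them, the SNARE proteins syntaxin, SNAP-25 and synaptobrevin draw the membranes together, and synaptotagmins couple fusion to calcium. Neurexins and neuroligins bind each other across the synaptic cleft.

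The libraries held 25968405 and 26733834 counts in the dexamethasone libraries (replicates 1 and 2), against 26948588 and 21904510 in the PBS libraries. The medulla was present in all 4. Chromaffin markers, 15 in number, summed to 14200 and 11000 CPM (counts scaled by library size) in the dexamethasone libraries, against 9410 and 14100 CPM in the PBS libraries. All 15 were higher in PBS replicate 2 than in PBS replicate 1, and 13 of 15 were higher in dexamethasone replicate 1 than in dexamethasone replicate 2. Markers of neurons were low. The 10 that could be tested summed to 95.7 and 79.9 CPM in the dexamethasone libraries and 74.7 and 93.3 CPM in the PBS libraries, and the cholinergic markers Chat and Slc18a3 had 0 to 4 counts in any library. Of these neuronal markers 1, the RNA-binding protein gene Elavl4, passed the test as higher after dexamethasone (log2 fold change 1.18 ± 0.27, SE; edgeR adjusted p = 0.0453). Markers of Schwann and sustentacular cells summed to 75.6 and 73.6 CPM after dexamethasone against 55.4 and 56.4 CPM after PBS, with 0 of 10 called. Red blood cell markers, 3 of 5 called lower, summed to 146 and 137 CPM in the dexamethasone libraries, against 226 and 394 CPM in the PBS libraries. Macrophage markers summed to 233 and 207 CPM in the dexamethasone libraries, against 174 and 210 CPM in the PBS libraries, so that the groups overlapped. Of the 6, 2 were called higher, Mrc1 (log2 fold change 1.24) and Cd163 (0.91). Another 2 had negative values, C1qa (−0.29) and Cd68 (−0.09), and were not called. With the trend on gene length given below removed, 0 neuronal, 0 red blood cell and 1 macrophage marker were called. The median log2 fold change of the red blood cell markers was then −0.63, in place of −1.17. No marker of endothelium, fat or smooth muscle was called.

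Of the 36 genes tested, 5 were called higher after dexamethasone and 0 lower by edgeR's quasi-likelihood test at a Benjamini-Hochberg adjusted p of 0.05. They were Pclo, Cadps, Rab3c, Ppfia2 and Syt4. The share called higher was 13.9% of these genes, beside 3.26% of all 16027 genes tested, where 1.37% were called lower and 4.63% in either direction. The share differed with gene length. Among protein-coding genes within 1.2-fold of the length of Pclo 22.4% were called higher, and for Cadps 13.3%. For Rab3c, Ppfia2 and Syt4 it was 9.93%, 7.91% and 1.98%. Before adjustment, 11 of the 36 were higher and 1 lower at p under 0.05, beside 14.3% and 13.1% of all genes. The median log2 fold change, dexamethasone over PBS, was 0.28 over the 36 genes and 0.01 over all genes, and it was positive in 29 of the 36. Both dexamethasone libraries lay above both PBS libraries in 17 of them and below in 5, beside 30.8% and 29.7% of all genes. The 5 that lay below were Rab3a, Vamp2, Cplx1, Nrxn2 and Nlgn3, none of which was called. Summed over the 36, the level was 1360 and 1300 CPM in the dexamethasone libraries and 967 and 1070 CPM in the PBS libraries.

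**Figure D1:**
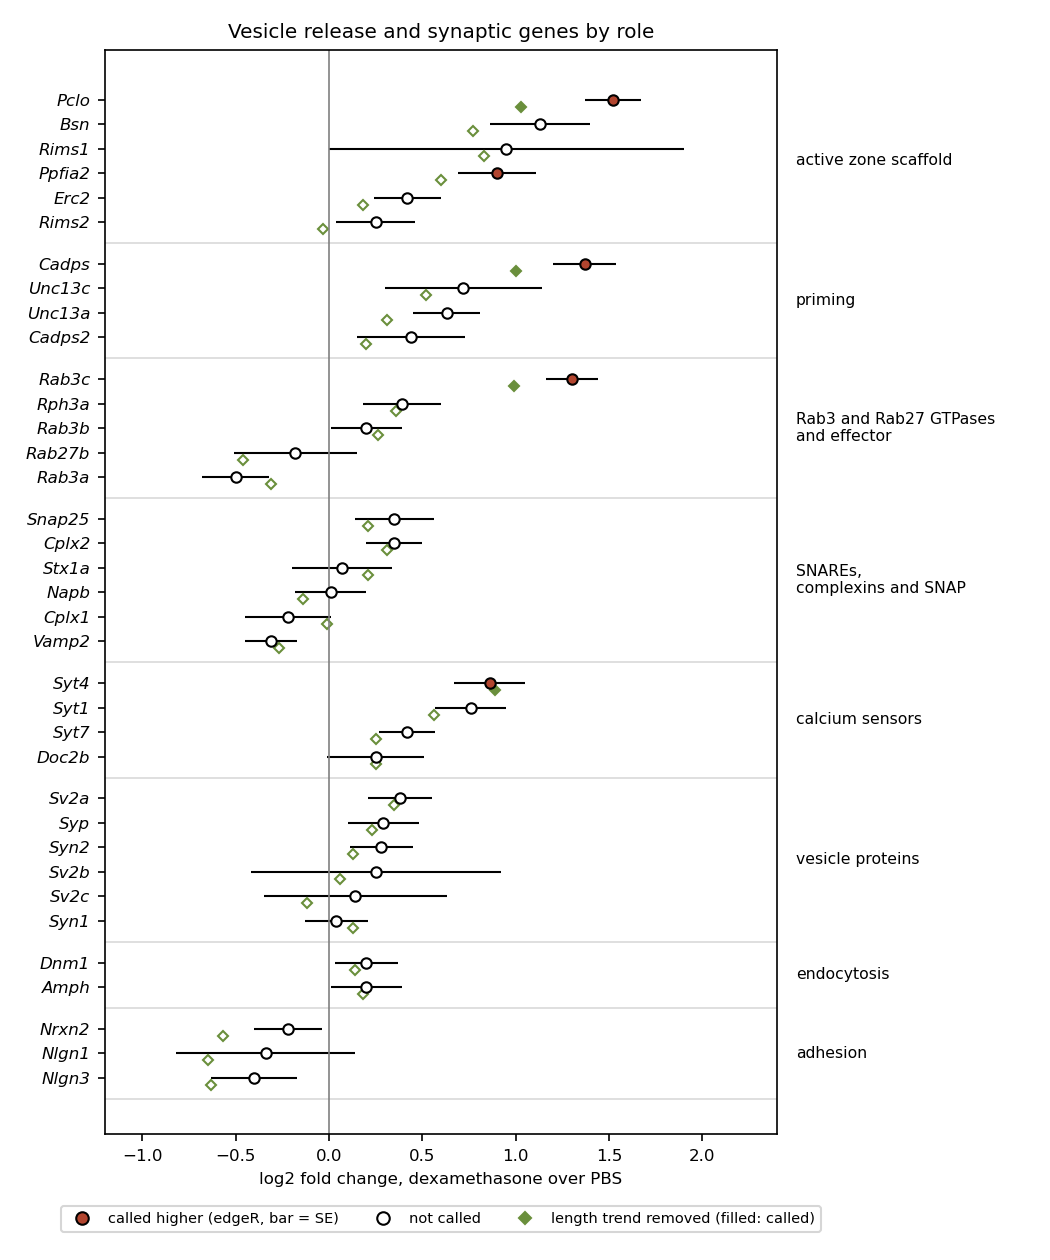
Log2 fold change (dexamethasone over PBS) of the 36 genes tested, grouped by role, with circles and SE bars for the fit with all 4 libraries (filled: called higher) and diamonds for the fit with the gene length trend removed (filled: called higher). Pclo, Cadps and Rab3c lie farthest to the right at 1.52, 1.37 and 1.30, and the adhesion genes lie left of 0.

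The promoters of Pclo, Cadps, Rab3c and Ppfia2, 4 of the 5 called genes, are shown, and that of Syt4 is not. They were read for AGAACA, a hexamer that the glucocorticoid receptor binds, paired with TGTTCT after a gap of 3 bases. Each runs from 250 bases before to 50 bases after the gene's start in RefSeq (GRCm38.p6), 5′ to 3′ on the gene's strand, and capitals mark the hexamer AGAACA or its reverse complement TGTTCT, the pentamer TGACG or CGTCA found in cAMP elements, and the GC box GGGCGG or CCGCCC. They lie at chr5:14514668-14514967 (plus strand), chr14:12823030-12823329 (minus), chr13:110280157-110280456 (minus) and chr10:106470060-106470359 (plus). The Rab3c window lies wholly inside the span of the gene in the deposited annotation, 110054187 to 110280996.
Pclo: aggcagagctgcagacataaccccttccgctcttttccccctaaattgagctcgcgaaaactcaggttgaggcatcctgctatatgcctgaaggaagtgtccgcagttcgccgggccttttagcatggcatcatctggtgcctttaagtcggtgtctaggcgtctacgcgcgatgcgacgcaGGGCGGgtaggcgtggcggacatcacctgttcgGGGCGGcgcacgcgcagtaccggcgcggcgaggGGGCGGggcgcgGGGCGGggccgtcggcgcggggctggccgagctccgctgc
Cadps: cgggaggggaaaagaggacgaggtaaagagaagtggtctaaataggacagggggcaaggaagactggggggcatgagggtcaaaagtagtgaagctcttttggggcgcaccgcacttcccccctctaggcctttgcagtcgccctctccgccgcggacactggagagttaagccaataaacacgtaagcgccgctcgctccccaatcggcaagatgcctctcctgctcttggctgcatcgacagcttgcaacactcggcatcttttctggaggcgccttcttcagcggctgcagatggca
Rab3c: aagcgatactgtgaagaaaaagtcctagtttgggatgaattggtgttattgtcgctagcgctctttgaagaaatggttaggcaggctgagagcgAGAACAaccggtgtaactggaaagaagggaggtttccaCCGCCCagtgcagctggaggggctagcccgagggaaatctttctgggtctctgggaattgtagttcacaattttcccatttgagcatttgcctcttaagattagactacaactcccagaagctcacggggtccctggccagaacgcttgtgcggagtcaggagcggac
Ppfia2: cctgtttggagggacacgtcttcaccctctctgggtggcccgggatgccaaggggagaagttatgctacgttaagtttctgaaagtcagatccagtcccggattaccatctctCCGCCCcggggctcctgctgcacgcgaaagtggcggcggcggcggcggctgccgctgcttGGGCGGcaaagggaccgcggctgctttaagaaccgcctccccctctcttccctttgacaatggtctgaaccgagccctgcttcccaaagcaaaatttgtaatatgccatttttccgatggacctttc
Rab3c alone of these held AGAACA, 1 copy, which 19.0% of 32851 promoters do on either strand. None held TGACG, which 20.8% of all promoters do, and Pclo, Ppfia2 and Rab3c held 4, 2 and 1 GC boxes, which 35.7% of promoters have at least once. The paired element was in none of the 28 genes of the set with a promoter sequence, and in 3 of all promoters. An exact element this rare could hardly be met in 28 promoters, so that its absence tells nothing about receptor binding. The bearing of these sequences on the fold changes was not tested. Of those 28 genes, 5 held AGAACA, 6 held TGACG and 21 held a GC box. Their median GC content was 59.0%, against 52.7% over all promoters.

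Calls by role, here and below, stand beside 3.26% of all genes called higher and 1.37% called lower. At those shares, no call in a role of 6 genes or fewer says little about that role. The active zone scaffold genes had the highest median of the role groups, 0.92, with 6 of 6 positive and 2 called. Pclo encodes piccolo, a giant scaffold protein that clusters vesicles at the active zone (ENSMUSG00000061601, GRCm38 chromosome 5, 14514918 to 14863459). It had 52.8 and 56.0 CPM in the dexamethasone libraries, against 19.5 and 18.4 CPM in the PBS libraries. The groups were far apart and each was tight, and the log2 fold change was 1.52 ± 0.15 (SE; edgeR adjusted p = 0.00426). Ppfia2, which encodes liprin-alpha-2, an organiser of the active zone, had 17.3 and 18.7 CPM after dexamethasone against 8.02 and 11.4 CPM after PBS. Its libraries did not overlap either, with a log2 fold change of 0.90 ± 0.21 (adjusted p = 0.0466). A fit without 1 library leaves that group with 1 library, which is assumed to vary like the other group. The Ppfia2 call was lost without dexamethasone replicate 2 (0.84, adjusted p = 0.104), with the length trend removed (0.60, adjusted p = 0.157), with DESeq2 size factors (0.88, adjusted p = 0.0521) and with the replicate number as a block (0.91, adjusted p = 0.0731).

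The partner of piccolo, bassoon, is encoded by Bsn, which is singled out here after its values were seen. Bsn had 32.6 and 28.0 CPM in the dexamethasone libraries and 18.2 and 9.33 CPM in the PBS libraries. The groups did not overlap, but the PBS libraries lay far apart from each other, and the log2 fold change of 1.13 ± 0.27 was not called (edgeR adjusted p = 0.0533). It was called in each of the 4 fits that left out 1 library, at 0.72 without PBS replicate 2 and 1.68 without PBS replicate 1, and not with the length trend removed (0.77, adjusted p = 0.139); those 4 fits rest on the spread of the other group. With the replicate number as a block it was called (1.2, adjusted p = 0.0356), also with the length trend removed (0.81, adjusted p = 0.0454). Rims2, the most abundant scaffold gene by CPM, encodes a Rab3-binding protein that recruits calcium channels. It had 135 and 136 CPM after dexamethasone against 87.4 and 140 CPM after PBS, so that PBS replicate 2 stood level with the dexamethasone libraries (log2 fold change 0.25 ± 0.21). The value was 0.62 and called without PBS replicate 2 (edgeR adjusted p = 0.0428), and −0.07 and not called without PBS replicate 1. Erc2, a scaffold gene of the ELKS family, had 0.42 ± 0.18, and Rims1 was near the limit of detection with 22 and 4 counts after dexamethasone and 11 and 1 after PBS.

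All 4 priming genes had positive fold changes, with a median of 0.67, and 1 was called. Cadps encodes CAPS1, which primes dense-core vesicles for fusion (ENSMUSG00000054423, GRCm38 chromosome 14, 12372563 to 12823079). It had 23.2 and 21.6 CPM in the dexamethasone libraries, against 9.04 and 8.27 CPM in the PBS libraries. Neither group spread by more than 2 CPM, and the log2 fold change was 1.37 ± 0.17 (edgeR adjusted p = 0.00722). Its paralogue Cadps2 was scarcer, at 4.47 and 4.62 CPM after dexamethasone against 4.07 and 2.60 CPM after PBS, and was not called (0.44 ± 0.29). The ratio of Cadps to Cadps2 counts, which needs no scaling between libraries, was 5.19 and 4.68 in the dexamethasone libraries and 2.22 and 3.19 in the PBS libraries. Unc13a, the gene of the main priming factor of synaptic vesicles, had 17.9 and 16.1 CPM after dexamethasone against 10.4 and 11.6 CPM after PBS. Its libraries stood apart, and its log2 fold change of 0.63 ± 0.18 was not called (adjusted p = 0.0696). Unc13c, a paralogue best known from the cerebellum, stood at 0.91 to 2.72 CPM and was not called (0.72 ± 0.42), except without PBS replicate 1 (1.46, edgeR adjusted p = 0.0265).

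The Rab3 genes differed among themselves, and 1 of the 5 genes of this role was called. Rab3c is a GTPase gene of secretory vesicles (ENSMUSG00000021700, GRCm38 chromosome 13, 110054187 to 110280996). It had 195 and 180 CPM in the dexamethasone libraries, against 72.1 and 79.7 CPM in the PBS libraries. It was the most abundant of the 5 called genes, and its log2 fold change was 1.30 ± 0.14 (edgeR adjusted p = 0.0051). Rab3a, the main Rab3 gene of nerve terminals, had lower values after dexamethasone, with 46.6 and 38.2 CPM after dexamethasone against 68.2 and 51.8 CPM after PBS. The groups did not overlap, but the log2 fold change of −0.50 ± 0.18 was not called (adjusted p = 0.115), although it was without PBS replicate 2 (−0.70, adjusted p = 0.0151). Rab3b, at 0.20 ± 0.19, overlapped between groups. The Rab3c to Rab3a count ratio was 4.18 and 4.70 in the dexamethasone libraries and 1.06 and 1.54 in the PBS libraries, and that of Rab3c to Rab3b was 5.70 and 6.22 against 3.11 and 2.49. Rab3c has a listed length of 12 kb and Rab3a of 2.23 kb, and fold changes ran with length, as given with the length trend. Per kilobase of listed length the order of the family differed between groups. After dexamethasone Rab3a averaged 19.1 CPM per kilobase, Rab3c 15.6 and Rab3b 8.96, while after PBS Rab3a averaged 26.9, Rab3b 7.83 and Rab3c 6.30. Rab3b and Rab3c overlapped between the PBS libraries on this scale. The exons of Rab3a overlap those of Mpv17l2 on the opposite strand, which had 1081 to 1103 counts after dexamethasone and 1569 to 1634 after PBS, and use of strand in the counting is not given in the sources used here. Unc13a overlaps Colgalt1, Syn1 overlaps Araf and Ppfia2 overlaps Acss3 in the same way, with 1570 to 2482, 2601 to 3069 and 22 to 60 counts for the partners, whereas Rab3c and Cadps overlap no exon of another gene. Rab27b, a dense-core vesicle GTPase gene, stood at 1.78 to 2.4 CPM (−0.18 ± 0.33), and Rph3a, which encodes the Rab3 effector rabphilin, had 0.39 ± 0.21.

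The 6 genes of the fusion core showed no call, beside 3.26% of all genes called higher, and a median of 0.04. Vamp2, which encodes the vesicle SNARE synaptobrevin 2, had 115 and 108 CPM in the dexamethasone libraries and 133 and 143 CPM in the PBS libraries. The groups did not overlap, with lower values after dexamethasone, and the log2 fold change of −0.31 ± 0.14 was not called (edgeR adjusted p = 0.185). Cplx2, a complexin gene that clamps and promotes fusion, had 98.4 and 118 CPM after dexamethasone against 84.4 and 84.9 CPM after PBS (0.35 ± 0.15, adjusted p = 0.16). Its paralogue Cplx1 was scarce, at 4.36 to 5.38 CPM, and differed by −0.22 ± 0.23. Snap25, the gene of the plasma membrane SNARE SNAP-25, ranged from 45.9 to 55.1 CPM after dexamethasone against 31.1 to 48.1 CPM after PBS, so that the groups overlapped (0.35 ± 0.21), and it was called when PBS replicate 2 was left out (0.68, edgeR adjusted p = 0.0289). Stx1a, its syntaxin partner, and Napb, whose product helps to take SNARE complexes apart, had 0.07 ± 0.27 and 0.01 ± 0.19.

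Among the calcium sensors all 4 fold changes were positive, with a median of 0.59, and 1 gene was called. Syt4 encodes a synaptotagmin of dense-core vesicles. It had 47.8 and 39.7 CPM in the dexamethasone libraries, against 20.4 and 27.8 CPM in the PBS libraries. Its libraries stood apart, and the log2 fold change was 0.86 ± 0.19 (edgeR adjusted p = 0.0392). The call was lost without dexamethasone replicate 1 (0.72, adjusted p = 0.0547) and with the replicate number as a block (0.87, adjusted p = 0.0862). Syt1, the gene of the fast calcium sensor and singled out after its values were seen, had 57.3 and 51.1 CPM after dexamethasone against 26.3 and 37.6 CPM after PBS. Its log2 fold change of 0.76 ± 0.19 was not called (adjusted p = 0.0544). It was called by DESeq2 (adjusted p = 0.00955) and limma-voom (0.0475), and without PBS replicate 2 (1.03) or dexamethasone replicate 2 (0.84), but not with the length trend removed (0.56, adjusted p = 0.159). The Syt4 to Syt1 ratio was 0.834 and 0.777 after dexamethasone and 0.774 and 0.738 after PBS, so that the ratio of the pair differed little between groups. Syt7, a slow high-affinity sensor gene of chromaffin cells, had 63.8 and 67.1 CPM after dexamethasone against 44.5 and 53.6 CPM after PBS (0.42 ± 0.15, adjusted p = 0.117). Doc2b, which encodes a C2-domain sensor, had 75.3 and 80.2 CPM after dexamethasone, and its PBS libraries, at 85.9 and 44.4 CPM, lay on both sides of them (0.25 ± 0.26). Without PBS replicate 1 it was called (0.79, edgeR adjusted p = 0.0028), and without PBS replicate 2 it was not (−0.15, adjusted p = 0.701).

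Vesicle membrane genes had no call, beside 3.26% of all genes called higher, and their 6 fold changes ran from 0.04 to 0.38. Syp, the gene of synaptophysin and a classic marker of such vesicles, had 65.8 and 51.8 CPM in the dexamethasone libraries and 41.1 and 55.2 CPM in the PBS libraries. Here the order of the libraries was that of the chromaffin markers, and the groups overlapped (0.29 ± 0.19). Syn2, which encodes a synapsin that holds vesicles in reserve, had 41.7 and 35.2 CPM after dexamethasone against 28.6 and 34.8 CPM after PBS. Syn1 had 0.04 ± 0.17. Of the transporter-like vesicle glycoprotein genes, Sv2a had 0.38 ± 0.17, while Sv2b and Sv2c were scarce, at 0.144 to 4.90 CPM. Dnm1, the dynamin gene of vesicle retrieval, had 47.8 and 48.4 CPM after dexamethasone against 36.0 and 47.9 CPM after PBS (0.20 ± 0.17). Amph, which encodes its partner amphiphysin, had 9.12 and 8.83 CPM after dexamethasone against 7.42 and 8.27 CPM after PBS (0.20 ± 0.19).

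The adhesion genes were the role group with 3 of 3 negative fold changes, and none was called. Nrxn2, a neurexin gene, had 14.9 and 15.4 CPM in the dexamethasone libraries and 19.7 and 15.7 CPM in the PBS libraries (−0.22 ± 0.18). Nlgn3, a neuroligin gene, had 5.55 and 6.87 CPM after dexamethasone against 9.15 and 7.16 CPM after PBS (−0.40 ± 0.23). Both had lower values after dexamethasone by less than the test could call, at adjusted p of 0.444 and 0.289 in edgeR. Nlgn1 stood at 0.769 to 1.81 CPM and overlapped between groups. Nrxn3 had 3 and 0 counts in the dexamethasone libraries and 3 and 0 in the PBS libraries and was not tested.

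**Figure D2:**
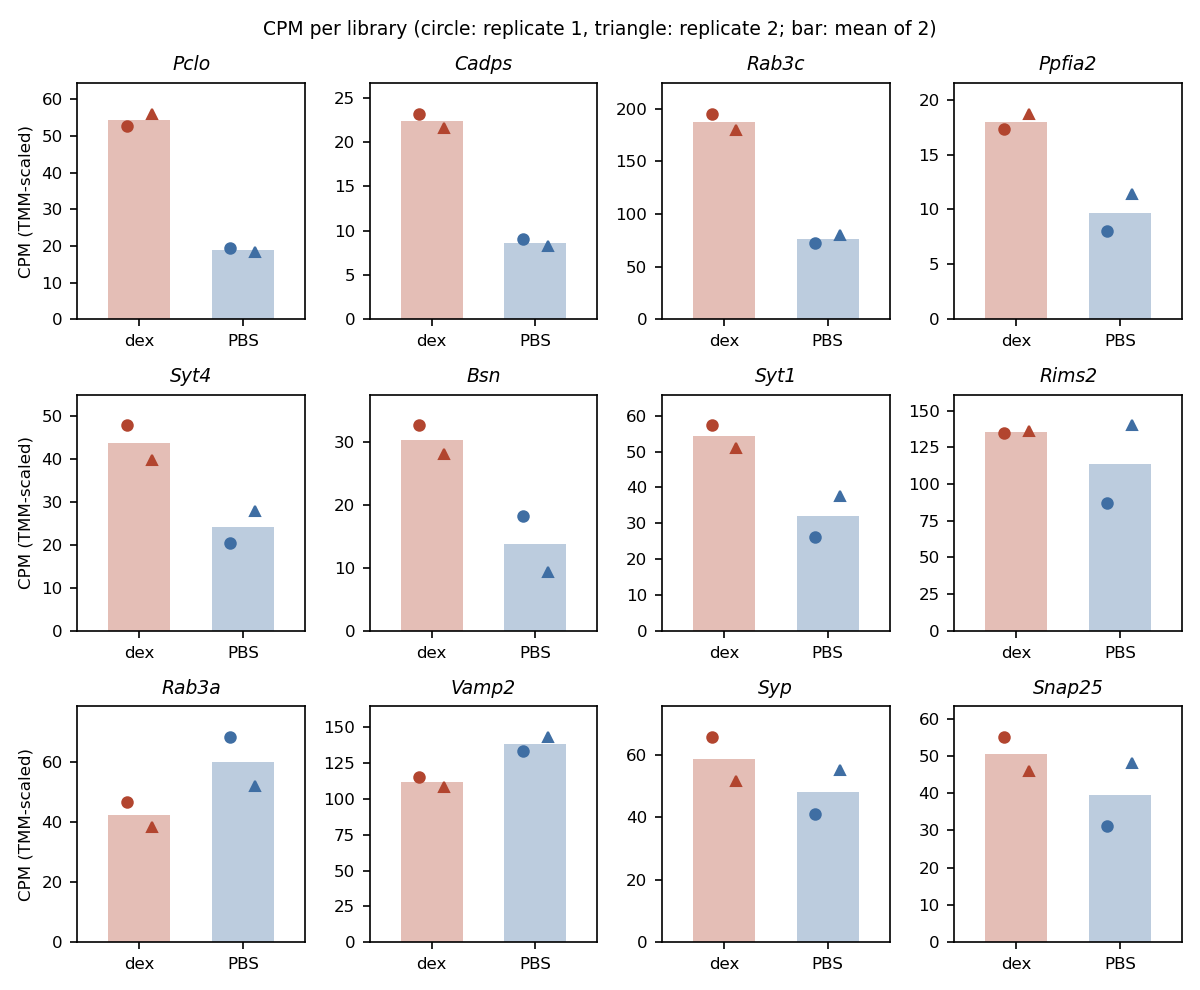
CPM per library for 12 genes (circle: replicate 1; triangle: replicate 2; bar: mean of the 2 libraries), dexamethasone left and PBS right, each panel with its own axis from 0. Pclo, Cadps and Rab3c have tight groups that lie far apart, Bsn has PBS libraries at 18.2 and 9.33 CPM, and Syp and Snap25 overlap.

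Gene length moves with these fold changes. Over 14249 protein-coding genes the log2 fold change was 0.208 higher per doubling of the listed length, which matched the union of GENCODE exons for 35 of the 37 genes of the set (Pearson r = 0.392 across genes, which are not independent replicates). The slope of log2 CPM, taken relative to the mean of the libraries, differed between libraries of 1 group too, at 0.0343 and 0.175 in the dexamethasone libraries, against −0.0562 and −0.154 in the PBS libraries. The genes of the set are long. Their median listed length was 7.32 kb, against 4.41 kb over protein-coding genes, and their median span in the genome was 82.0 kb against 24.9 kb. Pclo, at 22.5 kb, is the longest of them, and the trend gave 0.52 of its 1.52. For Cadps, at 15.1 kb, it gave 0.40 of 1.37, for Rab3c 0.33 of 1.30, for Ppfia2 0.30 of 0.90 and for Syt4, which is 3.90 kb long, −0.01 of 0.86. In all 26 of 36 lay above the trend, as did 46.4% of protein-coding genes, with a median of 0.19 above it. Against a trend on genomic span 21 of 36 lay above, and the share of all genes above that trend was not taken.

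With the trend on listed length taken out of each library before the test, 4 genes were called higher and 0 lower, beside 1.93% and 0.836% of all genes. Pclo stood at 1.03 (edgeR adjusted p = 0.0159), Cadps at 1.00 (0.0301), Rab3c at 0.99 (0.0215) and Syt4 at 0.89 (0.0398). The adhesion genes lay farther below 0, at −0.57 for Nrxn2, −0.65 for Nlgn1 and −0.63 for Nlgn3, and none was called. Rims2, Napb and Sv2c changed sign, to −0.03, −0.14 and −0.12. By role, the median with the trend removed was 0.69 for the scaffold genes, 0.41 for the priming genes, 0.41 for the calcium sensors, 0.26 for the Rab genes, 0.10 for the fusion core and 0.13 for the vesicle membrane genes.

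**Figure D3:**
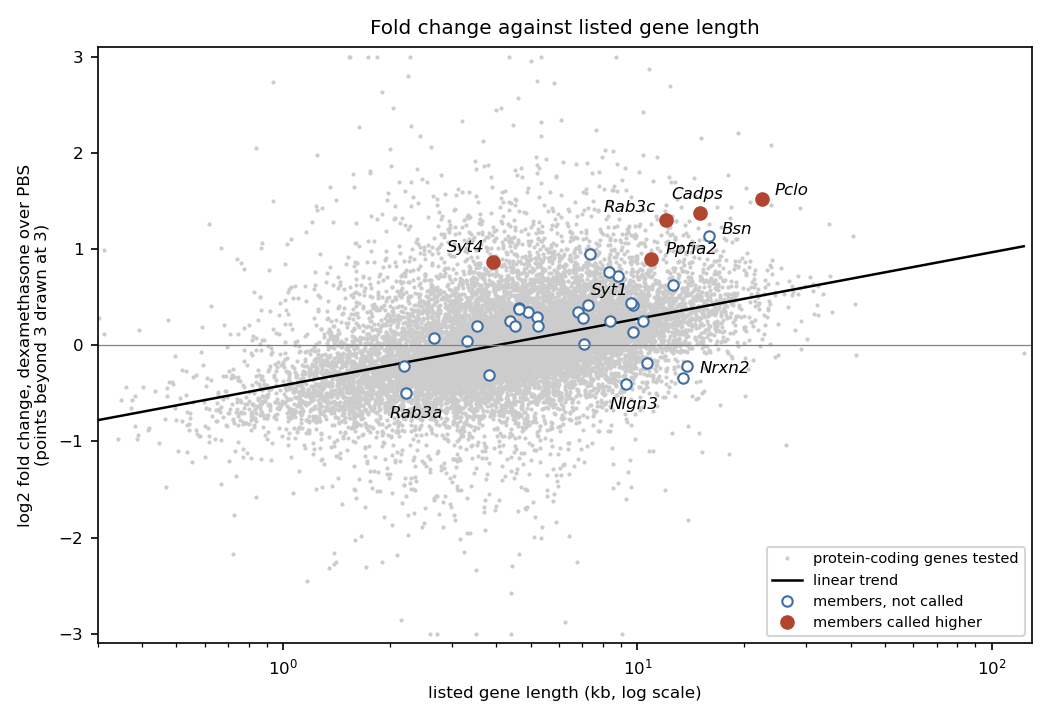
Log2 fold change (dexamethasone over PBS) against listed gene length on a log axis, with grey points for protein-coding genes, a line for their linear trend and circles for the genes of the set (filled: called higher). Pclo, Cadps, Rab3c and Ppfia2 are long and lie above the line, Syt4 is short and lies above it, and Nrxn2 and Nlgn3 are long and lie below it.

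The chromaffin marker level differed between the pools of a group. The mean log2 CPM of the 15 chromaffin markers was 7.91 and 7.60 in the dexamethasone libraries and 7.34 and 7.87 in the PBS libraries, a difference of 0.15 between the group means. Of the 36 genes, 23 were higher in PBS replicate 2 than in PBS replicate 1, as all chromaffin markers were, and 22 were higher in dexamethasone replicate 1 than in dexamethasone replicate 2, beside 49.7% and 51.9% of all genes. Both orders held in 16 of the 36, beside 30.8% of all genes. Taken as a ratio to the chromaffin markers within each library, 11 genes lay higher in both dexamethasone libraries than in both PBS libraries, and 4 lay lower, beside 9.24% and 28.2% of all genes. This ratio is not free of the length trend. The chromaffin markers had a median listed length of 2.74 kb, against 7.32 kb for the set. Their median log2 fold change was 0.12, and 0.26 with the length trend removed. The 11 held all 5 called genes, with Bsn, Unc13a, Syt1, Rph3a, Snap25 and Syp, and the 4 were Rab3a, Rab27b, Vamp2 and Cplx1. The ratio of Pclo was −2.18 and −1.79 on the log2 scale after dexamethasone and −3.05 and −3.66 after PBS, that of Rab3c −0.30 and −0.11 against −1.17 and −1.55, and that of Syt4 −2.32 and −2.29 against −2.99 and −3.07. Markers of the steroid-producing cortex, 3 of 9 called lower, summed to 48900 and 45300 CPM after dexamethasone against 66200 and 69100 CPM after PBS. The chromaffin markers did not all move alike, with 11 positive and 4 negative fold changes. With the length trend removed 1 of them was called higher, Scg2 (0.84, edgeR adjusted p = 0.0322). The part of tissue make-up in the fold changes was not tested, by these ratios or otherwise.

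**Figure D4:**
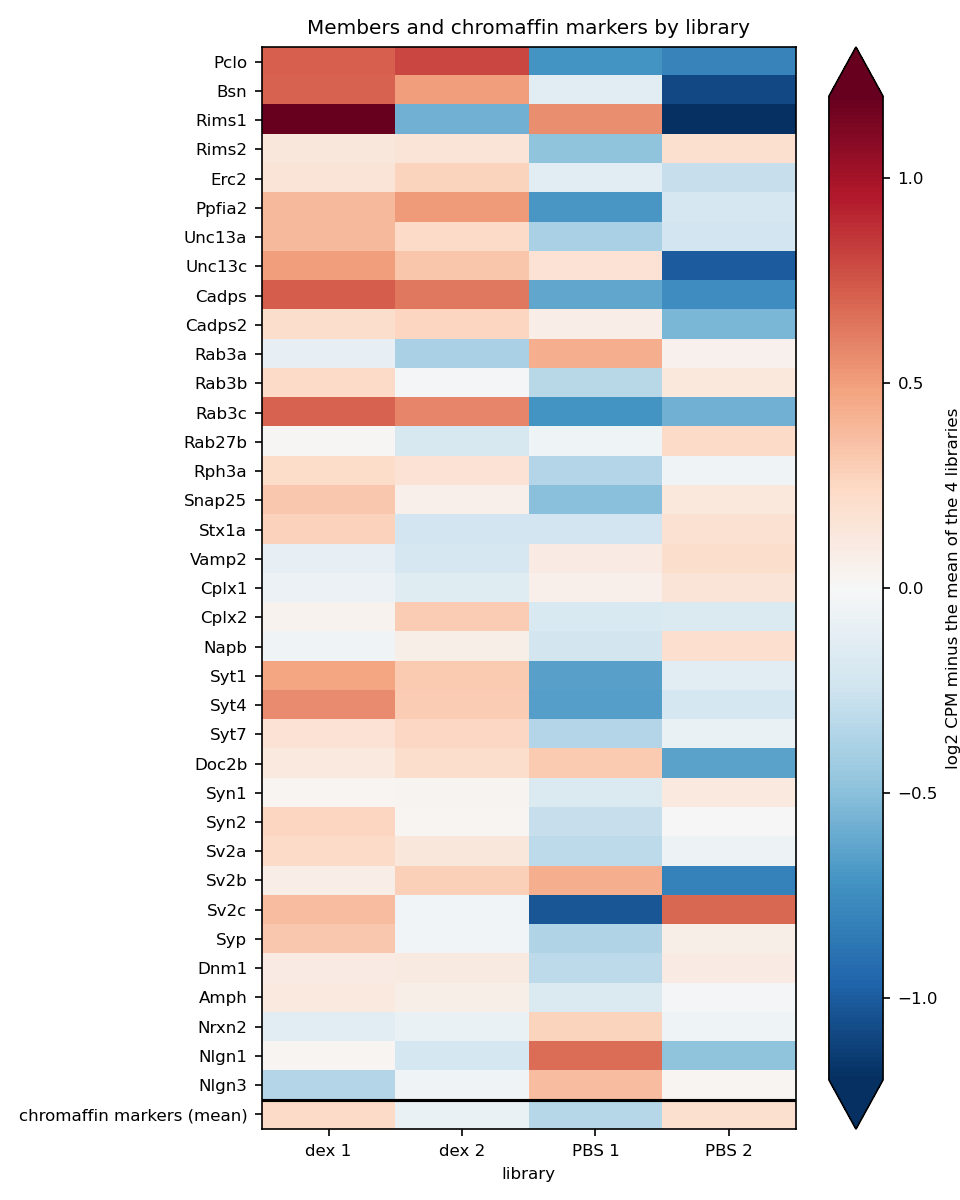
Log2 CPM of the 36 genes in each library minus the mean of the 4 libraries, with the mean of the 15 chromaffin markers in the last row, dexamethasone libraries left of PBS libraries. Pclo, Cadps and Rab3c are above their mean in both dexamethasone libraries, whereas Syp and Snap25 are low in PBS replicate 1, where the chromaffin markers are low too.

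The levels per kilobase of listed length put Vamp2, Rab3a, Cplx2 and Doc2b on top in both groups, and none of these was called. After dexamethasone Vamp2 averaged 29.2 CPM per kilobase, Cplx2 21.9, Rab3a 19.1, Doc2b 17.8 and Rab3c 15.6. In the PBS libraries Vamp2 averaged 36.2, Rab3a 26.9, Cplx2 17.2, Doc2b 14.9 and Rims2 10.9. Pclo and Cadps were far down this order, at 2.42 and 1.49 CPM per kilobase after dexamethasone and 0.842 and 0.575 after PBS.

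The rest of the release machinery was read from 6 further lists of 179 genes, of which 163 were tested, 11 were called higher and 0 lower. The share higher was 6.75%, beside 3.26% of all genes, where 1.37% were lower. Their median log2 fold change was 0.13, or 0.01 with the length trend removed. Before adjustment, 34 were higher and 13 lower at p under 0.05, beside 14.3% and 13.1% of all genes. DESeq2 called 16 of them higher and 5 lower, beside 5.7% and 5.42% of all genes. With limma-voom these were 10 and 0, beside 3.16% and 1.34%. Rims3, which encodes a short RIM protein, had 82.5 and 70.2 CPM in the dexamethasone libraries and 30.6 and 37.9 CPM in the PBS libraries (1.16 ± 0.16, edgeR adjusted p = 0.00911). It was the single call among 34 genes of the active zone, the Rab cycle and vesicle tethers, and the exocyst genes Exoc1 to Exoc8 and Exoc6b had none. The relation to Rims2 differed between groups, with a Rims3 to Rims2 ratio of 0.612 and 0.517 after dexamethasone and 0.350 and 0.271 after PBS.

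Of 38 other SNARE genes and regulators 2 were called, Stxbp5l, which encodes the tomosyn-2 inhibitor of SNARE assembly, and Vamp1, a synaptobrevin gene. Stxbp5l had 6.07 and 6.22 CPM after dexamethasone against 1.81 and 2.21 CPM after PBS (1.62 ± 0.26, edgeR adjusted p = 0.014). Vamp1 had 60.9 and 60.7 CPM after dexamethasone against 38.2 and 41.4 CPM after PBS (0.61 ± 0.14, adjusted p = 0.0436), whereas its paralogue Vamp2 was not called. Of 23 synaptotagmins and C2-domain effectors 3 were called. Syt14 had 40.5 and 40.0 CPM after dexamethasone against 22.1 and 20 CPM after PBS (0.93 ± 0.15). Sytl5, a Rab27 effector gene, had 12.2 and 10.4 CPM after dexamethasone against 4.74 and 2.11 CPM after PBS (1.70 ± 0.33). Syt10 was rare, with 12 and 20 counts after dexamethasone and 0 in both PBS libraries. With each PBS library set to a floor of 3 counts it was 4.56-fold higher. Its call is a description only, since the count filter kept it through the dexamethasone libraries alone. It was not among the calls of DESeq2. At 0.447 and 0.727 CPM after dexamethasone, it fell below a filter at a CPM of at least 1 in 2 libraries and was not tested there. The 11 calls in the further lists include Syt10.

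Of 27 other synaptic adhesion genes 3 were called, all higher, beside 3.26% of all genes. A positive fold change was found in 24, beside 8176 of 16022 gene names tested. With the length trend removed 1 was called, and the median log2 fold change was 0.24 in place of 0.46. Cntn1, a contactin gene, had 9.64 and 9.81 CPM in the dexamethasone libraries, against 4.67 and 3.75 CPM in the PBS libraries (1.2 ± 0.22, edgeR adjusted p = 0.0217). Adgrl3, which encodes a latrophilin receptor, had 5.69 and 7.16 CPM in the dexamethasone libraries, against 3.09 and 2.93 CPM in the PBS libraries (1.09 ± 0.25, adjusted p = 0.0446). In both genes the groups did not overlap. Calls in the lists of vesicle membrane and endocytic genes were Synj2, an inositol phosphatase gene of vesicle recycling (0.89 ± 0.15), and Sh3gl3, an endophilin gene (1.26 ± 0.27). With the length trend removed 7 of the 11 were still called: Stxbp5l, Syt10, Sytl5, Rims3, Synj2, Sh3gl3 and Cntn1.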

How the data were processed

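Right adrenal glands were pooled by the submitters before RNA extraction, and sequenced after a NEBNext Ultra library kit, per the labels' protocols. Pools held different mice. The deposited values are raw counts of reads for each gene, as whole numbers. The tools STAR 2.5, HTSeq 0.6.1 and CASAVA 1.8 and the build GRCm38 (mm10) come from the submitters' processing notes; settings and strand use were not known here. Columns were matched to titles by the letter D (dexamethasone) or S (taken to mean saline, the vehicle) and the replicate number.

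Genes were kept with filterByExpr (16027), scaled with TMM and tested with edgeR 4.0.16 in R 4.3.3, with group as the sole term. P-values were adjusted over all genes tested. CPM use TMM-scaled totals, with a prior count of 2 on the log2 scale. A standard error is the absolute log2 fold change over the root of the F statistic. P-values measure the spread between pools. Counts of the 2 libraries of a group differed by a chi-square of 17.3 (dexamethasone) and 23.0 (PBS) per degree of freedom. That is more than counting noise alone gives, but it cannot tell different pools from 2 preparations of the same RNA. For the fit without the length trend, the slope of log2 CPM on log2 listed length was removed from each library as an offset. Alternatives used DESeq2 1.42.0 and limma-voom (limma 3.58.1). Members and lists were chosen with earlier results of these data known. Genes named in full were those called in either fit and the 2 with the highest mean CPM in each role; of the further lists up to 3 called genes by p. Overlapping genes cannot be told apart without strand. A result for 1 gene of the further lists is not reported here.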

Additional observations from a re-analysis of the deposited data

How the results depend on the processing

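Pclo, Cadps and Rab3c were called higher in every one of the 15 alternatives run. Calls over all genes moved with the settings too, from 3.26% higher and 1.37% lower in the reported fit. Library totals alone gave 8 of the set higher and 18 of the further genes (5.57% of all genes), and moved the median of all genes to 0.10. No low-count filter gave 8 higher and 1 lower (Rab3a), and 27 and 9 of the further genes, beside 5.12% and 4.91% of all genes. DESeq2 gave 5 of the further genes lower, beside 5.42%. Removal of the length trend left 7 further genes higher, beside 1.93%. The labels do not say whether libraries with the same replicate number shared a day. The difference of replicate 1 from replicate 2 had a correlation of −0.0266 over genes between the groups, which cannot settle this. With the number as a block 4 of the set and 7 further genes were higher, beside 1.52% of all genes. With the length trend removed as well these were 5 and 4, beside 1.67%. Leaving out 1 library gave 5 to 9 of the set higher and 0 to 1 lower, and 8 to 24 further genes higher and 1 to 11 lower. The highest of these were 9 without PBS replicate 2, 8 without PBS replicate 1 for the set, and 24 and 11 without PBS replicate 1 for the further genes, where all genes had 3.78% higher and 2.15% lower without PBS replicate 2, and 9.53% and 10.4% without PBS replicate 1. The chromaffin marker level as a term, added after the data were seen, gave 9 of the set and 29 and 12 further genes higher and lower, beside 12% and 11.4% of all genes, and with the length trend removed 10 further genes lower, beside 6.65%. The cause of these shifts was not tested. Depth limits Rims1, Sv2b and Nlgn1, which had 1 to 48 counts in a library, and no difference was detectable in them. Of the set, 26 lay above the linear trend on listed length, 27 above a lowess trend and 21 above a trend on genomic span. The share of all genes above the lowess and span trends was not taken, so that those counts have no baseline.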
